A study of Mesocricetus auratus with 24 samples.

Results

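Cultures grown from single morphologically transformed (MT) colonies were compared with pools of colonies that had received the same carcinogen, in the Syrian hamster fetal cell transformation assay. The comparison rests on 8 of the 24 libraries of the study, 4 MT colonies and 4 B[a]P pools, chosen by the sample titles. Target cells of both groups were exposed to benzo[a]pyrene (B[a]P) at 5 µg/mL. Each MT colony library came from a culture expanded from 1 transformed colony and harvested after 19 to 25 days, whereas each B[a]P pool combined about 60 colonies and was harvested on day 9. A further 4 vehicle pools of the same kind (0.2% DMSO, day 9) served to set the starting level of each region, and 4 cultures of B[a]P-treated colonies of normal morphology (days 19 to 25) are given beside the MT colonies where they bear on a result. Values of 1 more culture are set beside a few windows: it was grown on from 1 MT colony exposed to B[a]P at 5 µg/mL and read in 4 technical replicates on day 48, when senescent, and 4 on day 94, after senescence bypass. For the 16 libraries of colonies and pools the labels give a single male fetus as the source of the cells. The labels do not say whether it was the same fetus throughout. The colonies and the pools were described as biological replicates. MT colonies and B[a]P pools differ in morphology, in days of culture and in whether 1 colony or many were sampled, and these 3 differences cannot be told apart. The label "transformed" cannot be checked from methylation.

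Cytosine methylation in mammals is found mostly at CpG dinucleotides. CpG-dense stretches, many of them at promoters, are mostly unmethylated in normal cells, and the sparser remainder of the genome is mostly methylated. Maintenance methyltransferase copies the pattern at each cell division, so the descendants of 1 cell tend to share it. In a pool of colonies a region that is methylated in some colonies and not in others is read as an intermediate level. The transformation assay scores colonies of fetal cells whose growth has become disordered after exposure to a chemical. B[a]P is a polycyclic aromatic hydrocarbon that cells metabolise to DNA-binding epoxides.

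The assay was reduced representation bisulfite sequencing, in which restriction fragments rich in CpG are sequenced after bisulfite treatment. A methylation level is the percent of reads at a CpG position, or summed over the positions of a 1 kb window, that kept their cytosine. MT colonies listed 1264913 to 1483483 CpG positions, with a summed coverage of 46741884 to 67276906 and a median of 22 to 37 reads per position. B[a]P pools listed 899322 to 1305370 positions, with a summed coverage of 39193876 to 41673018 and a median of 21 to 32 reads. The MT colonies were thus the more deeply sequenced group. Regions carry the scaffold names and coordinates of the deposited files, without gene names, because no annotation of that assembly was used here.

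Methylation averaged over single positions was slightly higher in the colonies, by less than the test could separate. Over the 99444 positions covered in all 8 libraries, of 2735533 covered in any, the level was 49.1%, 50.3%, 50.5% and 50.7% in MT colonies 1 to 4. It was 48.8%, 49.1%, 49.4% and 49.2% in B[a]P pools 1 to 4. MT colony 1 lay among the pools and the other 3 colonies lay above every pool. The means were 50.2% ± 0.728 and 49.1% ± 0.269 (SD, n = 4 each), which differed by 1.03 points (p = 0.0857 by exact two-sided permutation, where 0.0286 is the smallest possible). Without MT colony 1 the difference was 1.45 points (exact permutation test, p = 0.0286). Weighted by reads it was 0.187 points (exact permutation test, p = 0.771), and over the positions shared by all 24 libraries 0.265 points (exact permutation test, p = 0.543).

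Windows of 1 kb gave more sequence in common. All 8 libraries had at least 3 positions in 45241 windows, and 27097 of these, on 1106 scaffolds, had a pooled methylation of 5 to 95% and were tested. Averaged over the tested windows, methylation was 63.6% ± 1.18 in MT colonies and 61.3% ± 0.441 in B[a]P pools (SD, n = 4 each). The mean of the colonies was above the mean of the pools in 58.5% of tested windows, and the median difference was 2.05 points.

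Few single windows could be called. At an adjusted p below 0.05 with means at least 10 points apart, 2 windows (0.00738% of those tested) were called higher in MT colonies and 0 (0.0%) lower, by a quasi-binomial test with limma's squeezed dispersions and Benjamini-Hochberg adjustment. Before adjustment, p was under 0.05 in 2008 windows with higher methylation in colonies (7.41%) and in 692 with lower (2.55%), so 74.4% of these were higher. edgeR's quasi-likelihood test called 0 windows (smallest adjusted p = 0.545). Of the 27097 tested, 1153 had an unadjusted p under 0.05 by edgeR, fewer than that threshold gives on average when nothing differs. Of these 1153, 883 were higher in colonies. The means were at least 10 points higher in colonies in 6042 windows (22.3%) and at least 10 points lower in 3452 (12.7%). In 947 windows (3.49%) every colony was above every pool, and in 343 (1.27%) every colony was below every pool. The median difference was 22.1 points in the first set, spread over 215 scaffolds, and -20.0 points in the second, spread over 157. Gains thus outnumbered losses by each of these counts, while the 2 calls were lost with most changes of the test, as described with the windows below. At 54259 single positions tested in the same way 0 were called (smallest adjusted p = 0.0937), and of 6453 positions at an unadjusted p under 0.05, 61.4% were higher in colonies.

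The starting level of a window was taken as its mean level in the 4 vehicle pools, none of which enters the comparison. Vehicle pool 2 listed the fewest positions of the 24 libraries, 809562. Its mean level over them was 32.7%, against 39.5%, 42.1% and 39.9% in vehicle pools 1, 3 and 4. Starting levels without it were not examined. Over the 31495 windows measured in the vehicle pools, MT colonies and B[a]P pools, colonies were above the pools in each class of starting level, and the difference was 4.53 points in windows that started from 20 to 50% and 0.848 to 1.79 points in the other 3 classes. Differences between the classes were not tested. The 4 classes of level, 4 quartiles of density and their 16 combinations gave 24 exact two-sided permutation tests, whose p-values were adjusted together by Benjamini-Hochberg. The classes come from the same 8 libraries, so the tests are not independent of each other. The adjusted p of a class also depends on the p-values of the other classes. Missing the threshold therefore need not mean that colonies and pools overlapped.

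Weakly methylated windows, the class that holds most CpG-dense sequence, gained little in absolute terms. In the 16698 windows that started under 20%, the mean level was 3.45%, 4.22%, 3.89% and 4.30% in MT colonies 1 to 4 and 3.08%, 3.0%, 3.18% and 3.21% in B[a]P pools 1 to 4. Every colony was above every pool. The means were 3.97% ± 0.389 and 3.12% ± 0.0946 (SD, n = 4 each), a difference of 0.848 points (exact permutation test, adjusted p = 0.0381).

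In the 2883 windows that started from 20 to 50%, the mean level was 40.1%, 44.4%, 42.4% and 44.7% in MT colonies 1 to 4 and 37.8%, 37.8%, 39.4% and 38.5% in the pools. Every colony was above every pool, and MT colony 1 was the closest to them. The means were 42.9% ± 2.13 and 38.4% ± 0.746 (SD, n = 4 each), a difference of 4.53 points (exact permutation test, adjusted p = 0.0381).

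In the 5613 windows that started from 50 to 80%, the level was 69.5%, 70.8%, 72.1% and 72.4% in the colonies and 68.9%, 69.2%, 69.7% and 69.8% in the pools. MT colony 1 lay inside the range of the pools, and the difference of 1.79 points was not past the threshold (exact permutation test, adjusted p = 0.0935). Without MT colony 1 it was 2.39 points (exact permutation test, adjusted p = 0.0312).

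In the 6301 windows that started at 80% or more, the level was 88.4%, 88.9%, 89.7% and 89.4% in the colonies and 87.2%, 87.5%, 87.8% and 87.8% in the pools. Every colony was above every pool here too. The means were 89.1% ± 0.583 and 87.6% ± 0.299 (SD, n = 4 each), a difference of 1.54 points (exact permutation test, adjusted p = 0.0381).

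Libraries do not list the same positions in a window, and this bears on the class values. Restricted to positions shared by the 8 libraries, the differences were 1.12, 2.83, 0.333 and 1.098 points from the lowest to the highest starting class, and none was past the threshold (exact permutation tests, adjusted p = 0.098, 0.171, 0.717 and 0.098). When any 1 of the pools was left out, the classes under 20%, from 20 to 50% and at 80% or more kept differences of similar size but had adjusted p-values of 0.0686 to 0.0762 (exact permutation tests). When the starting level was taken from the B[a]P pools themselves, which also enter the difference, the value at 80% or more was -1.01 points.

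**Figure D1:**
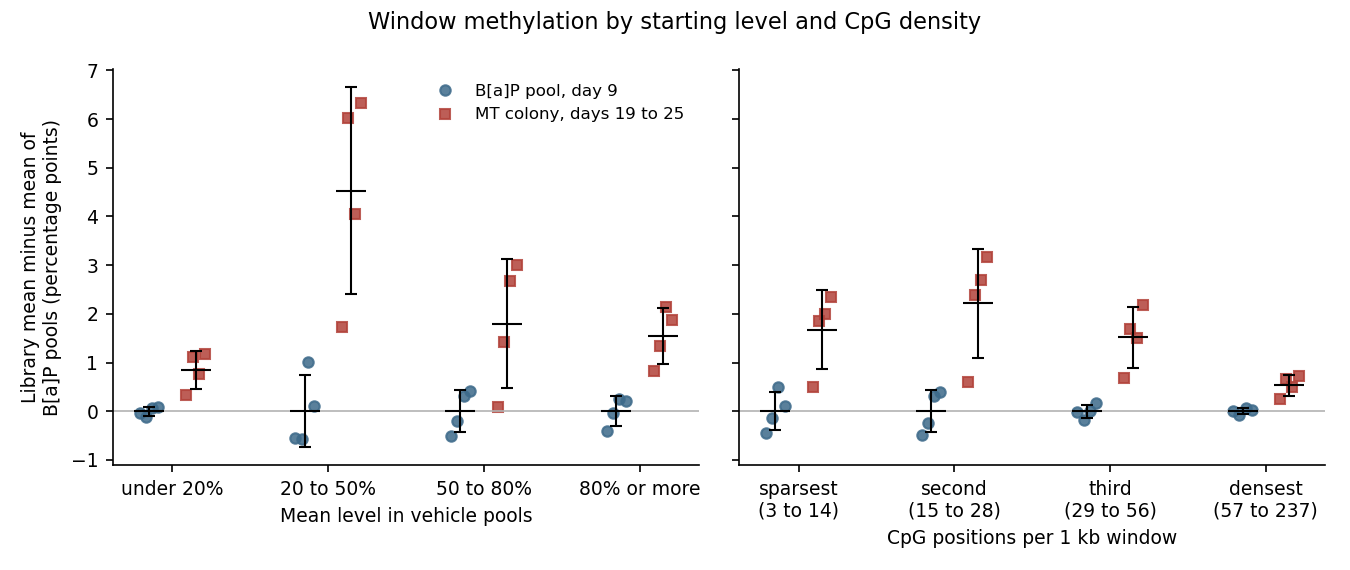
Mean window methylation of each library, as its difference in percentage points from the mean of the 4 B[a]P pools, by level in the vehicle pools (left) and by quartile of CpG positions per 1 kb window (right). Points are libraries in order of replicate number, black bars are the mean ± SD (n = 4); every MT colony lies above every B[a]P pool in each class shown except 50 to 80%, where MT colony 1 lies inside the range of the pools.

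CpG density was taken as the number of CpG positions, strands counted apart, that any of the 8 libraries listed in a window, and it therefore also depends on coverage. Colonies were above the pools in each density quartile (exact permutation tests, adjusted p = 0.0381 in each). In the sparsest quartile (3 to 14 positions, 8222 windows) the mean level was 66.8% ± 0.807 in colonies and 65.1% ± 0.394 in pools (SD, n = 4 each), a difference of 1.68 points. The groups barely separated there, with MT colony 1 at 65.6% and B[a]P pool 3 at 65.59%. In the second quartile (15 to 28 positions, 7918 windows) it was 52.0% ± 1.11 and 49.8% ± 0.430, a difference of 2.21 points.

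In the third quartile (29 to 56 positions, 7545 windows) the level was 20.7% ± 0.626 in colonies and 19.1% ± 0.138 in pools, a difference of 1.53 points. The densest quartile (57 to 237 positions, 7810 windows) was nearly unmethylated, as CpG islands usually are, at 4.12%, 4.53%, 4.36% and 4.59% in MT colonies 1 to 4 and 3.87%, 3.78%, 3.93% and 3.90% in the pools. Every colony was above every pool, with a difference of 0.531 points. Over positions shared by the 8 libraries the 4 quartiles differed by 1.16, 1.47, 0.901 and 0.924 points from sparsest to densest (exact permutation tests, adjusted p = 0.211, 0.211, 0.229 and 0.098), none of them past the threshold. When any 1 pool was left out, the differences kept a similar size. They were 1.52 to 1.855, 2.005 to 2.358, 1.51 to 1.69 and 0.517 to 0.583 points from sparsest to densest. None of the 4 then passed, in tests of groups of unequal size (exact permutation tests, adjusted p = 0.0686 to 0.108). The sparsest quartile also missed the threshold without MT colony 3 (exact permutation test, adjusted p = 0.0686) or MT colony 4 (adjusted p = 0.0722).

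Within a starting level, density ordered the differences in unlike ways. In windows that started under 20% the difference was 1.90 points in the sparsest quartile, 1.51 in the second, 0.917 in the third and 0.421 in the densest (exact permutation tests, adjusted p = 0.0381 in each). Over shared positions these were 1.49, 0.811, 1.39 and 0.892 points, no longer in the order of density and none past the threshold (exact permutation tests, adjusted p = 0.211, 0.211, 0.098 and 0.098). At this level the quartiles also started from unlike values, 8.55% in the sparsest pools and 1.52% in the densest. In windows that started from 20 to 50% the differences were 3.30, 5.42, 5.64 and 3.11 points, the first 3 with an adjusted p of 0.0381 and the densest with 0.119 (exact permutation tests), with 152 windows in that last class. Over shared positions these were 1.09, 6.31, 3.42 and 2.05 points (exact permutation tests, adjusted p = 0.48, 0.098, 0.211 and 0.282).

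In windows that started from 50 to 80% the difference was 1.23 points in the sparsest quartile, 2.11 in the second, 3.05 in the third and 3.99 in the densest. Only the third, of 612 windows, was past the threshold (exact permutation tests, adjusted p = 0.143, 0.0686, 0.0381 and 0.0686). The order by density at this level was also seen with windows of 500 bp, at 0.965, 2.26, 3.74 and 5.11 points. Over shared positions it was not seen, with -0.439 and -0.011 points in the third and the densest quartile. In windows that started at 80% or more the differences were 1.44, 1.58, 1.75 and 2.01 points, with adjusted p-values of 0.0381 in the first 3 and 0.0935 in the densest, of 95 windows (exact permutation tests). Over shared positions they were 1.51, 0.916, 0.484 and 1.40 points, without that order and none past the threshold (exact permutation tests, adjusted p between 0.098 and 0.433).

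**Figure D2:**
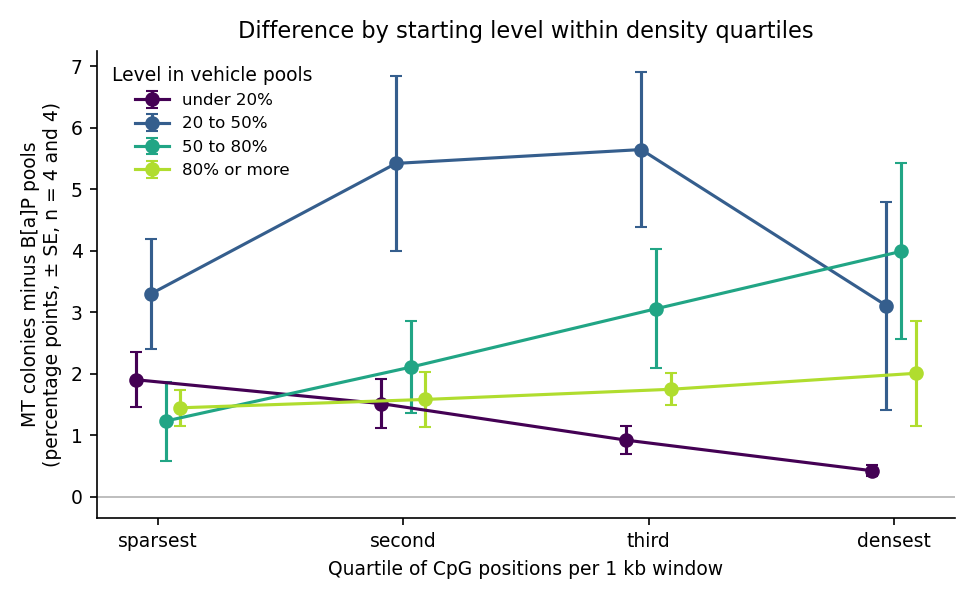
Mean methylation of MT colonies minus B[a]P pools in percentage points, by quartile of CpG positions per window (x axis) for each level in the vehicle pools (lines). Points are differences of means and bars are ± SE (n = 4 and 4); the 16 differences are above 0, from 0.421 points in dense windows that started under 20% to 5.64 in the third quartile of windows that started from 20 to 50%.

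The number of windows that gained or lost was also split by class, among the windows that passed the filter on pooled methylation. Only 3191 of the 16698 windows that started under 20% passed, some of them through higher methylation in 1 group, so these shares describe the tested windows and not the class. Every colony was above every pool in 3.604% of tested windows that started under 20%, 4.32% from 20 to 50%, 3.67% from 50 to 80% and 2.95% at 80% or more. Every colony was below every pool in 0.972%, 1.15%, 1.503% and 1.12% of them. Set beside 3.49% and 1.27% of all tested windows, the shares by starting level are close to the background.

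By density, from the sparsest to the densest quartile, every colony was above every pool in 3.27%, 3.34%, 4.02% and 5.71% of tested windows, and below in 1.58%, 1.13%, 0.755% and 0.571%. Of the densest windows 875 of 7810 passed the filter, against 6939 of 8222 of the sparsest, and a dense window of low level could pass through the group in which it was high. Over every measured window, without the filter, the shares above ran the other way, at 3.02%, 2.82%, 2.51% and 2.43% from the sparsest to the densest quartile. The shares below still fell, at 1.40%, 0.922%, 0.530% and 0.487%. The rise of gains with density was thus seen only among windows that passed the filter. In each quartile, with or without the filter, windows above outnumbered windows below, and differences between quartiles were not tested.

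The spread between single colonies was close in size to that between pools of about 60 colonies. For each library the mean distance of its window levels from the mean of the other 3 of its group was taken over the 45241 measured windows. It was 8.41, 8.90, 8.19 and 9.07 points in MT colonies 1 to 4 and 7.75, 8.70, 9.70 and 8.07 points in B[a]P pools 1 to 4. The colonies lay inside the range of the pools, B[a]P pool 3 was the farthest from its group and B[a]P pool 1 the nearest. The means were 8.64 ± 0.411 and 8.55 ± 0.858 points (SD, n = 4 each; exact permutation test, p = 0.857). Without B[a]P pool 3, which listed the fewest positions of the 8 libraries, the colonies were 0.668 points farther from each other than the pools (exact permutation test, adjusted p = 0.190). Without B[a]P pool 1, B[a]P pool 4, MT colony 2 or MT colony 4 the sign turned, to between -0.254 and -0.124 points. A pair of colonies differed on average by 10.3 points per window (9.71 to 10.9 over 6 pairs), a pair of pools by 10.2 points (9.09 to 11.3 over 6 pairs) and a colony and a pool by 10.7 points (9.58 to 11.9 over 16 pairs).

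The distance was also taken by starting level. In windows that started under 20% it was 3.35 ± 0.211 points between colonies and 2.90 ± 0.269 between pools, and from 20 to 50% it was 17.1 ± 0.650 and 15.1 ± 1.81 (SD, n = 4 each; exact permutation tests, adjusted p = 0.229 in both). From 50 to 80% it was 13.8 ± 0.564 and 13.8 ± 1.56 (exact permutation test, adjusted p = 0.971). At 80% or more the order was the other way, 8.18 ± 0.468 between colonies and 9.05 ± 0.895 between pools (exact permutation test, adjusted p = 0.229). None of these passed the threshold.

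Fewer windows had intermediate levels in the colonies. Of the measured windows, 27.4%, 27.6%, 26.6% and 27.3% lay from 20 to 80% in MT colonies 1 to 4, against 29.8%, 28.8%, 27.9% and 29.3% in B[a]P pools 1 to 4. Every colony was below every pool. The means were 27.2% ± 0.444 and 29.0% ± 0.808 (SD, n = 4 each), a difference of -1.77 points with the smallest p this design allows (exact permutation test, p = 0.0286), which did not pass after adjustment over the 4 measures of spread (adjusted p = 0.114). The remainder lay mainly at the upper end. Windows above 80% made up 28.5%, 29.6%, 30.4% and 30.2% in the colonies and 26.4%, 26.8%, 28.1% and 27.1% in the pools. Windows under 20% made up 42.5% to 44.0% in the colonies and 43.7% to 44.4% in the pools. The median reads per window were 396 to 588 in colonies and 329 to 364 in pools. With reads thinned to the lowest library in each window the difference in the share from 20 to 80% was -1.72 points. Over positions shared by the 8 libraries it was -1.33 points (exact permutation test, adjusted p = 0.229).

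Windows in which 1 library alone stood at least 30 points from each of the other 7 are candidates for a change in a single colony. A colony was alone and higher in 80, 145, 80 and 179 windows for MT colonies 1 to 4, and a pool in 37, 66, 136 and 53 windows for B[a]P pools 1 to 4. Of the pools only B[a]P pool 3 reached the range of the colonies. The difference was not past the threshold (exact permutation test, p = 0.171, adjusted p = 0.343). A colony was alone and lower in 161, 159, 70 and 177 windows and a pool in 108, 251, 373 and 130 (exact permutation test, p = 0.343, adjusted p = 0.457). MT colony 3 had the fewest and B[a]P pool 3 the most.

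Over the windows with a starting level, lone gains were spread by starting level as follows. Of 304 windows with a colony alone and higher, 162 started under 20%, 114 from 20 to 50%, 27 from 50 to 80% and 1 at 80% or more, where the classes held 16698, 2883, 5613 and 6301 of the windows. Of 182 with a pool alone and higher, the counts were 86, 69, 27 and 0. Lone losses fell mostly in windows that started at 50% or more in both groups. The counts by rising level were 0, 21, 137 and 97 of 255 for colonies and 3, 40, 216 and 158 of 417 for pools.

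**Figure D3:**
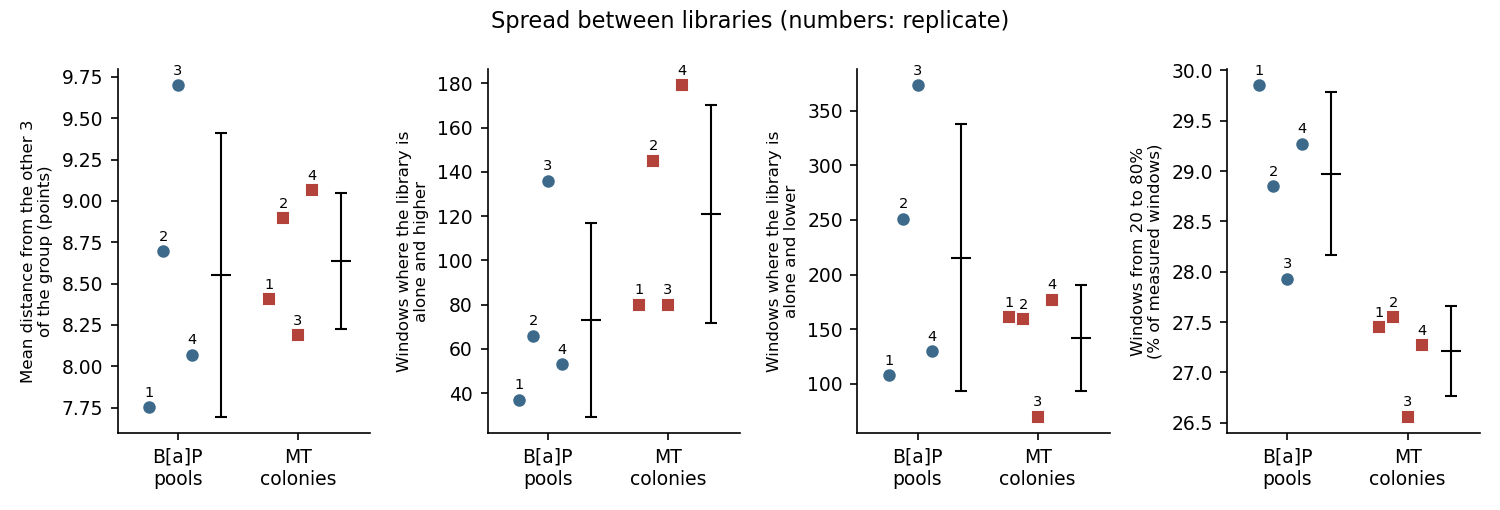
From left to right, each library's mean distance in points from the other 3 of its group, its number of windows alone and higher, alone and lower, and its share of windows from 20 to 80%, with replicate numbers beside the points and mean ± SD (n = 4). The axes do not start at 0; the groups overlap in the first 3 panels, and in the fourth every MT colony (26.6% to 27.6%) lies below every B[a]P pool (27.9% to 29.8%).

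Gains beyond the pools were mostly seen in 1 or 2 colonies, and few were seen in all 4. A colony stood at least 10 points above every pool in 1849, 2744, 2221 and 2925 tested windows for MT colonies 1 to 4, and at least 10 points below every pool in 2039, 2055, 1505 and 1877. MT colony 1 was the only one of the 4 with more losses than gains. Of the windows with a gain, 3848 had it in 1 colony, 1658 in 2, 621 in 3 and 178 in all 4. Of the windows with a loss, 4206 had it in 1 colony, 1183 in 2, 252 in 3 and 37 in all 4. Windows with a loss thus came to 5678 and those with a gain to 6305, and in both most were seen in 1 colony. Read the other way, pools stood beyond every colony upward in 2829, 825, 228 and 37 windows for 1, 2, 3 and 4 pools, and downward in 5018, 1684, 602 and 178.

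By starting level, gains of a colony beyond every pool took up 11.97% ± 3.54 of tested windows under 20%, 16.8% ± 3.501 from 20 to 50%, 9.29% ± 1.66 from 50 to 80% and 3.45% ± 0.782 at 80% or more (SD over 4 colonies). Gains of a pool beyond every colony took up 4.72% ± 1.66, 6.57% ± 2.42, 5.83% ± 1.96 and 2.14% ± 0.816 (SD over 4 pools). The filter on pooled methylation favours gains under 20%, where 3191 of 16698 windows passed. Over every measured window the shares of gains in that class were 2.92% ± 0.868 for colonies and 1.43% ± 0.563 for pools (SD, n = 4 each), and the groups overlapped, at 1.96% to 3.89% and 0.892% to 2.22%. From 20 to 50%, where nearly every window passed, they were 16.7% ± 3.48 and 6.56% ± 2.42 (SD, n = 4 each), and every colony was above every pool. These shares were not tested, since they come from the same 8 libraries as the class means.

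**Figure D4:**
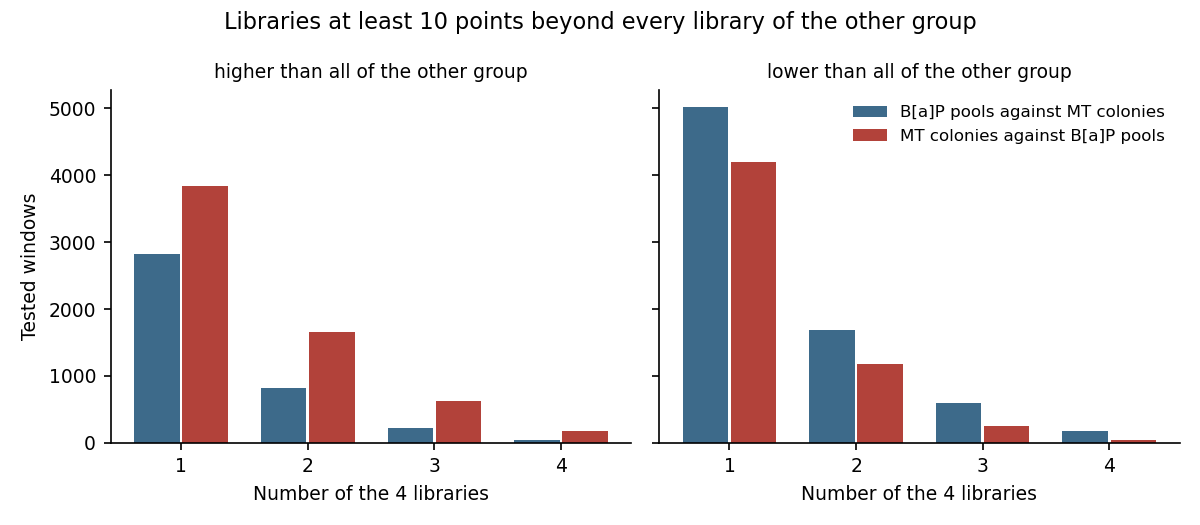
Number of tested windows (y axis) in which 1, 2, 3 or 4 libraries of a group (x axis) stood at least 10 points above (left) or below (right) every library of the other group. Red bars are MT colonies against B[a]P pools and blue bars the reverse; upward, the colonies run from 3848 windows for 1 library to 178 for 4 and the pools from 2829 to 37.

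The windows with the smallest p in each direction are described by their levels, including the 2 called ones. The window on scaffold KB708294.1 from 2771001 to 2772000 was called higher. It had 99.9%, 100%, 98.1% and 98.0% methylation in MT colonies 1 to 4 and 88.1%, 92.2%, 85.4% and 72.5% in B[a]P pools 1 to 4, from 1230 to 2192 reads per library. The colonies were nearly fully methylated and the pools spread below them, with means of 99.0% ± 1.11 and 84.5% ± 8.5 (SD, n = 4 each), a difference of 14.5 points (limma-squeezed test, adjusted p = 0.0436). It held 3 positions, 2771852, 2771861 and 2771895, all covered in all 8 libraries, with differences of 4.64, 11.8 and 27.0 points. The vehicle pools stood at 89.8% to 99.2%, so the colonies were close to the vehicle pools there. The call held in 5 of 16 other settings of the test, and not with the replicate number as a block (adjusted p = 0.198). It was lost without MT colony 2 or 3, without B[a]P pool 1, 3 or 4, and with edgeR (adjusted p between 0.103 and 1).

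The other called window, on KB708141.1 from 2175001 to 2176000, rested on 13 positions, of which 0 were covered in all 8 libraries. Its level was 90.6%, 91.7%, 100% and 93.0% in MT colonies 1 to 4 and 45.8%, 51.7%, 50.0% and 41.0% in B[a]P pools 1 to 4, from 236 to 914 reads. The groups were far apart, with means of 93.8% ± 4.24 and 47.1% ± 4.77 (SD, n = 4 each), a difference of 46.7 points (limma-squeezed test, adjusted p = 0.0436). The 4 vehicle pools ran from 20.9% to 100% and the 4 normal colonies from 60.8% to 100%, so the spread inside those groups covered much of the difference. With the replicate number as a block the adjusted p was 0.198. The call held in 2 of 15 other settings (coverage of at least 20, and without MT colony 1). Without any 1 of the other 7 libraries the adjusted p was between 0.0891 and 0.216, and with edgeR it was 1.

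Of the next 3 gains by p, none was past the threshold (limma-squeezed test, adjusted p = 0.0528 in each). On KB708263.1 from 34001 to 35000 the level was 90.5%, 86.3%, 92.9% and 81.2% in MT colonies 1 to 4 and 37.7%, 42.5%, 28.2% and 21.9% in the pools, a difference of 55.1 points. The vehicle pools ran from 25.1% to 34.6% and the normal colonies from 7.77% to 73.1%, so colonies of normal morphology lay from below the B[a]P pools to just under the MT colonies. At the 2 positions covered in all 8 libraries, 34336 and 34358, the colonies averaged 99.7% and 100% and the pools 20.9% and 31.5%.

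On KB708150.1 from 13935001 to 13936000, a dense window of 55 positions read 972 to 3527 times, the level was 42.0%, 78.2%, 62.3% and 73.2% in the colonies and 25.0%, 15.04%, 18.0% and 9.08% in the pools. The groups did not overlap, and the colonies were spread widely among themselves. The difference was 47.1 points, and the normal colonies ran from 19.6% to 88.1%. The senescent and the bypass culture stood at 65.1% to 86.9% and 89.4% to 96.0% in their 4 technical replicates each. On KB708134.1 from 2590001 to 2591000 the colonies stood at 97.3% to 100% and the pools at 67.9% to 83.9%, a difference of 25.1 points.

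The 5 losses with the smallest p had an adjusted p of 0.219 each (limma-squeezed test). On KB708201.1 from 8821001 to 8822000 the 4 pools were at 100% and MT colonies 1 to 4 at 55.0%, 76.1%, 70.2% and 67.3%, a difference of -32.8 points, from 55 to 292 reads. On KB708217.1 from 2979001 to 2980000 the colonies were at 21.6%, 24.8%, 46.0% and 32.4% and the pools at 80.4%, 85.9%, 59.9% and 65.7%, a difference of -41.8 points, with 0 of its 25 positions covered in all 8 libraries. In both windows the groups did not overlap, and in the first the vehicle pools ran from 70.2% to 100%.

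The remaining 3 losses were on KB708217.1 from 8238001 to 8239000, KB708157.1 from 15838001 to 15839000 and KB708185.1 from 6310001 to 6311000, with differences of -39.6, -26.5 and -24.1 points. In the first of these MT colony 1, at 86.6%, was well above the other 3 colonies, which stood at 42.9% to 57.4%. In the last, the vehicle pools ran from 62.2% to 99.7% and thus overlapped both groups. The bypass culture, averaged over the replicates that measured a window, was high in windows of both directions. In the 5 losses by order of p it stood at 91.5%, 86.5%, 66.85%, 100% and 89.7%. The MT colonies averaged 67.15%, 61.5%, 31.2%, 59.0% and 69.5% there. In the 5 gains by order of p the bypass culture stood at 98.6%, 91.2%, 96.1%, 92.7% and 92.4%.

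**Figure D5:**
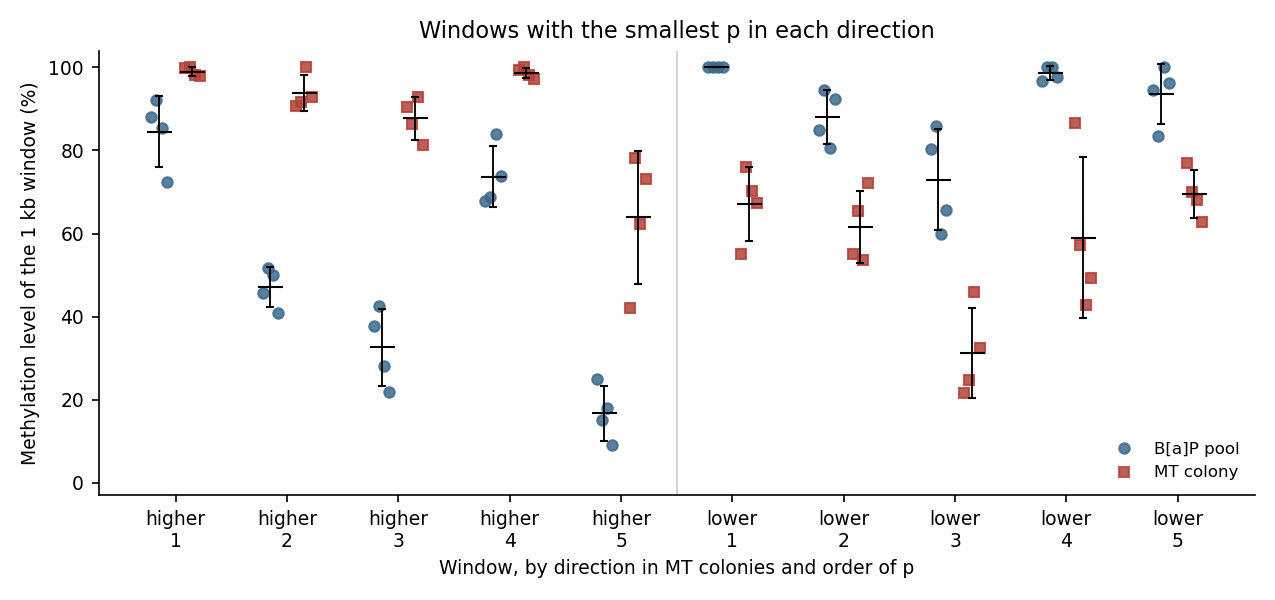
Methylation level in percent of each MT colony (red squares) and B[a]P pool (blue circles) in the 5 windows with the smallest p in each direction, with mean ± SD (n = 4). In order of p the higher windows are those on KB708294.1, KB708141.1, KB708263.1, KB708134.1 and KB708150.1, of which the first 2 were called, and the lower ones those on KB708201.1, KB708157.1, KB708217.1 (from 2979001 and from 8238001) and KB708185.1; the groups do not overlap in any of the 10.

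A single colony could stand near 0% or 100% and far from the other libraries. On KB708225.1 from 40001 to 41000, MT colony 4 was at 100% and the other 7 libraries at 0% to 13.9%. On KB708217.1 from 3513001 to 3514000, MT colony 1 was at 99.1% and the other 7 at 6.20% to 27.8%. On KB708136.1 from 6805001 to 6806000, MT colony 2 was at 100% and the other 7 at 0% to 29.6%. In each of these 1 colony was nearly fully methylated where its 3 fellow colonies and all 4 pools had little. Groups outside the comparison varied there. In the order given, the vehicle pools reached 61.6%, 17.4% and 8.26%, and the normal colonies 14.9%, 43.9% and 56.5%. On KB708127.1 from 55537001 to 55538000, MT colony 3 was at 82.2% and the other 7 libraries at 0% to 5.17%. The normal colonies ran from 0% to 100% in that window.

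The reverse was seen too. On KB708203.1 from 5556001 to 5557000, MT colony 1 was at 0% and the other 3 colonies at 100%, with the pools at 76.3% to 100%. MT colony 2 was at 0% on KB708296.1 from 821001 to 822000, where the other 7 libraries stood at 66.2% to 100%. MT colony 3 was at 9.2% on KB708140.1 from 12401001 to 12402000, with the other 7 at 69.8% to 100%. The vehicle pools ran from 10.9% to 90.6% there. MT colony 4 was at 3.3% on APMT01214281.1 from 1001 to 2000, with the other 7 at 70.1% to 100%. The lone windows named here hold 9 to 15 positions, read 58 to 939 times per library. They were chosen as the most extreme for their library, so their levels are a description. Whether the libraries listed the same positions in them was not checked.

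Colonies of normal morphology, grown as single colonies for the same 19 to 25 days, were set beside the MT colonies to show where they lay. Normal colony 2 had a mean level of 23.6% over its listed positions against 39.8% to 42.2% in the other 3, so values are given with and without it. Over windows measured in all 16 libraries of these groups, the level in windows that started from 20 to 50% was 39.6% to 44.1% in MT colonies, 31.1% to 43.0% in normal colonies and 37.2% to 39.0% in B[a]P pools. The normal colonies thus spread over both other groups. MT colonies were above normal colonies by 0.409, 4.39, 3.34 and 1.42 points from the lowest to the highest starting class (exact permutation tests, adjusted p = 0.314 in the lowest class and 0.267 in the other 3), and without normal colony 2 by 0.138, 2.09, 1.97 and 0.763 points (exact permutation tests, adjusted p = 0.629 in the lowest class and 0.533 in the others). In no class was the difference between MT and normal colonies past the threshold.

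The windows in which every MT colony was above or below every B[a]P pool were followed in groups that had no part in choosing them. Of these windows, 392 of the first kind and 122 of the second were measured in all 24 libraries. In the first kind the chosen groups stood at 67.0% and 45.4%, the normal colonies at 54.8% ± 5.65 (56.6% without replicate 2) and the vehicle pools at 50.9% ± 1.11 (SD, n = 4 each). The normal colonies were above the vehicle pools in 65.1% of them, against 53.2% of all 10483 tested windows measured in the 24 libraries. The senescent and the bypass culture stood at 63.9% ± 1.04 and 71.2% ± 0.360 (SD over 4 technical replicates of 1 culture each), beside 59.2% and 63.1% over all 10483 windows.

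In the second kind the chosen groups stood at 43.2% and 62.3%, the normal colonies at 50.1% ± 3.61 and the vehicle pools at 52.0% ± 1.43 (SD, n = 4 each), and the normal colonies were above the vehicle pools in 39.3%. The senescent and the bypass culture stood at 54.1% ± 0.737 and 55.1% ± 1.01 there (SD over 4 technical replicates each), well above the MT colonies. Over all 10483 windows they stood at 59.2% and 63.1%. They were above the vehicle pools in 57.4% and 53.3% of the second kind, against 67.5% and 72.5% of all 10483. In the first kind these shares were 78.3% and 87.0%. The vehicle pools lay between the MT colonies and the B[a]P pools in both kinds. The windows were chosen for those groups being apart, and a group outside the choice then tends to lie between them. Nothing is drawn from this position. Counted in the same way, every normal colony was above every B[a]P pool in 1.90% of 21991 tested windows and below in 1.63%. MT colonies against B[a]P pools gave 3.49% and 1.27%. Without normal colony 2, which lay low, the 3 remaining normal colonies were above every pool in 4.11% and below in 2.86%. Any 3 MT colonies gave 5.42% to 6.08% above and 2.31% to 2.58% below, since 3 libraries separate more easily than 4. These comparisons share the B[a]P pools, and the differences between them were not tested.

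Neighbouring windows were also compared. Among 2534 pairs of neighbouring tested windows, the differences of the 2 windows had a correlation of 0.163, given as a description, since the pairs share the same 8 libraries. Of 163 pairs with at least 1 window in which every colony was above every pool, 7 had both windows of that kind, and of 59 pairs with at least 1 window of the opposite kind, 1 had both. Whether this exceeds what the 3.49% and 1.27% of such windows would give was not tested. Coverage per scaffold was checked because a gain or loss of chromosome material alters it. Over 248 scaffolds, the share of reads in a colony ran from -0.29 to 0.42 on the log2 scale relative to the median over libraries. In none of the 8 libraries did a scaffold go beyond 0.5 in either direction.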

How the data were processed

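Groups and replicate numbers came from the sample titles. Per the labels' protocols, each library was made from 100 ng of DNA with a kit from Diagenode. The tools named in the submitters' processing notes are Bowtie2, Bismark 0.22.1, methylKit 1.10.0 in R 3.6.1, Trim Galore 0.5.0 and bcl2fastq 2.20.0.42, and the genome build was not given in the sources used here. Per the file headers, a row of the deposited tables holds 1 CpG position on 1 strand, its coverage as a read count, and the percent of reads with C or T. No position under 10 reads is listed. Methylated reads were taken as coverage times percent. Whether PCR copies had been removed is not shown.

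Positions of 10 or more reads, without the 0.1% most covered of each library, were summed over 1 kb windows, so a read over several positions counts for each. The median tested window had 262 to 465 such counts per library. Windows in which each library had 3 or more positions, with pooled methylation of 5 to 95%, were tested by a quasi-binomial logistic model. Dispersions (median 31.7, floor 1) were squeezed with limma 3.58.1 in 10 classes of pooled methylation before an F test, with Benjamini-Hochberg adjustment. edgeR 4.0.16 in R 4.3.3 was the alternative; other steps used Python 3.11.15, NumPy 2.4.6, pandas 2.3.3 and SciPy 1.17.1. Single values were compared by exact two-sided permutation over 70 assignments.

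The test was also run on 27097 simulated windows, of which 100 were changed by up to 20 and 100 by up to 40 points. The change was smaller where a level would have passed the end of the scale. Of unchanged windows 5.72% had p under 0.05, and 6 of 72 calls were false. Of the 2 sets of changes, 13% and 53% were recovered. With fewer than 10 calls, the named windows are the called ones plus those with the smallest p up to 5 in each direction, and the most extreme lone window of each colony in each direction. The groups, measures and rules were chosen with earlier results of these data known. The comparisons without normal colony 2 and the counts by class without the filter on pooled methylation were added after seeing the data. No gene lists or sequences were used, since no annotation or genome of the files' assembly was used here.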

Additional observations from a re-analysis of the deposited data

Results flagged for a closer look

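MT colony 3 was alone and lower in 70 windows, against 159 to 177 in the other 3 MT colonies, a gap of 0.832 of the group's range. It was 1 of 80 groups of 4 values examined in this way to have a library that far from the rest, where chance gives about 4. It listed the most positions of the 4 colonies and, with MT colony 1, had the fewest windows alone and higher; their part in the value was not tested.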

How the results depend on the processing

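The count of windows called higher, 2 in the test as described, was 0 with edgeR, without squeezing, without the upper coverage limit, with windows of 500 bp or 2 kb, over shared positions, without the filter on pooled methylation and at single positions, 1 with thinned reads, 5 at a coverage of at least 20, and 0 to 10 with 1 library left out (10 without MT colony 1, 5 without MT colony 4). Windows with every colony above or below every pool numbered 452 and 189 at a coverage of at least 20, 229 and 129 over shared positions (fewer windows), and 1490 to 1958 and 648 to 749 with 1 library left out (7 libraries separate more easily). At a coverage of at least 20, no class difference that had passed did so again, though sizes were similar. Under 20%, from 20 to 50% and at 80% or more they were 0.753, 4.46 and 1.36 points (exact permutation tests, adjusted p = 0.05275 in each). From the sparsest to the densest quartile they were 1.52, 1.84, 1.39 and 0.581 (exact permutation tests, adjusted p = 0.103, 0.0857, 0.05275 and 0.05275). Over shared positions the same 7 were 1.12, 2.83, 1.098, 1.16, 1.47, 0.901 and 0.924. The sparsest quartile was 1.61 with windows of 500 bp. With starting levels from the B[a]P pools, the sparsest quartile was 1.38, windows from 50 to 80% stood at 3.15 (past the threshold), and those at 80% or more at -1.01, with -1.495, -0.834 and -0.286 in their 3 sparser quartiles. Over shared positions, windows from 50 to 80% reversed to -0.439 and -0.011 in the third and densest quartile. The cause of these changes was not tested.

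With 1 library left out, the difference was 0.751 to 1.02 points under 20%, 3.89 to 5.50 from 20 to 50%, 1.39 to 2.39 from 50 to 80% and 1.32 to 1.76 at 80% or more, and 1.47 to 2.11, 1.90 to 2.74, 1.36 to 1.84 and 0.477 to 0.626 from the sparsest to the densest quartile. The mean over shared positions ran from 0.938 to 1.45 points, the difference in distance from -0.254 to 0.668 points (negative without MT colony 2 or 4 and without B[a]P pool 1 or 4), with neither sign past the threshold. No pairing by replicate number was seen: deviations of same-numbered colonies and pools had correlations of -0.016 to 0.0244, and 1 of 4 colonies correlated best with the pool of its own number. Whether same-numbered samples shared an experiment cannot be told from these values. With the replicate number as a block, 4 windows were called higher and 2 lower, none of them the 2 called without it (adjusted p = 0.198 for both), and sign flips of the 4 numbered pairs gave p = 0.125 for the mean over shared positions, the smallest an exact test of 4 pairs allows. With coverage of at least 10 reads, 99444 of 2735533 positions could be compared in all 8 libraries.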
